A study of Mus musculus with 12 samples.

Results

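The most abundant annotated genes of mouse liver were followed over genotype and diet. They are 106 of the 42554 entries of a gene count table, chosen by a mean above 1000 CPM (the count of a gene divided by the total of its library, times 1000000) over 12 liver RNA-seq libraries. The rule took entries with an ID of the C57BL/6NJ strain annotation and left out 4 such genes by ID. Another 5 entries above the limit were unannotated loci and were not members. The level that chose the genes is a description and was not tested; the differences between groups were not used by the rule.

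The study crossed an NLRP6 knockout with diet. The 4 groups, with 3 libraries each, were knockout mice on a high-fat diet (KO HFD), wild-type mice on that diet (WT HFD), knockout mice kept on the normal diet (KO ND) and wild-type mice kept on it (WT ND). All mice ate normal diet up to an age of 8 weeks, and the HFD groups then received the high-fat diet during 12 weeks. NLRP6 is an innate immune sensor of the NOD-like receptor family, and the stated purpose was its part in lipid storage by liver cells; the design text states that the knockout was checked in hepatocytes, and gives neither the allele nor the strain. RNA came from frozen whole liver. The labels do not say that the replicates were separate animals, so the p-values rest on how far these samples differ from each other, which can be a technical matter.

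Hepatocytes make up most of the liver's mass and secrete most plasma proteins, among them albumin, apolipoproteins, transport proteins and clotting factors. A small number of genes therefore supplies a large part of liver messenger RNA, and reads of the other genes share what is left of a fixed total. The hepatocyte's abundant messengers are also known to follow feeding and lipid load. None of the annotation IDs matched a gene symbol in the gene tables used here (0 matches), so genes are called by their abundance rank, 1 being the highest, and no role, sequence or position is given for any of them. The ranks order reads and not molecules, because counts were not divided by gene length. Liver cell markers and the level of Nlrp6 were not analysed here for the same reason. In whole tissue, fewer cells of a type and less RNA per cell cannot be told apart.

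Library totals ran between 13339879 and 15933886 counts. At this depth the lowest count of any of the 106 genes in any library was 3441, and all 106 passed the filter on low counts, which left 13843 genes for testing. The 3 members nearest the limit had means of 1027, 1011 and 1006 CPM, and the 3 annotated genes just below it had 990, 985 and 983 CPM. The median member had a mean of 1732 CPM, 61 members lay under 2000 CPM and 16 lay over 5000 CPM. The 13 most abundant genes held at least as much as all the other members together, and the first alone held 18.7% of the members' summed CPM. In the 4 group means, 80 members were over 1000 CPM in each group, and 60 were over it in every library. The other 26 reached the limit through the groups where they are high, so a difference between their groups is not independent of the rule; of the genes named below these are ranks 74, 77, 79, 81, 84, 97, 100 and 106.

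In the abundant genes, KO HFD replicate 1 was closer to the WT HFD libraries than the other KO HFD libraries were. Its members lay a median of 0.14 (absolute log2) from the WT HFD mean, against 0.47 in KO HFD replicate 2 and 0.31 in KO HFD replicate 3. In KO HFD replicate 1, 0 members were at least 2-fold above the WT HFD mean and 1 was at least 2-fold below it. KO HFD replicate 2 had 15 such members above and 10 below, and KO HFD replicate 3 had 9 above and 2 below. Over all genes tested the same distance was 0.229, 0.354 and 0.238 for replicates 1, 2 and 3, so there replicates 1 and 3 were alike and replicate 2 was the farthest. Of all 13843 genes, 383 were at least 2-fold above and 626 at least 2-fold below in replicate 1, 812 and 1149 in replicate 2, and 563 and 675 in replicate 3. Several results that involve the KO HFD group are therefore also given without replicate 1. Those not given in this way may also depend on it. Because replicate 1 was picked for lying nearest to WT HFD, leaving it out tends to widen the difference between KO HFD and WT HFD. Results without it are therefore a description of this dependence.

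The abundant genes took a larger share of all counts on HFD than on ND in both genotypes. They held 40.7, 38.2 and 39.0% in the KO HFD libraries, against 36.6, 35.1 and 35.9% in the KO ND libraries. The WT HFD libraries gave 41.1, 41.5 and 41.2%, against 35.9, 34.7 and 35.2% in the WT ND libraries. All 6 HFD values were above all 6 ND values. Group means were 39.3 ± 1.26% in KO HFD, 35.9 ± 0.769% in KO ND, 41.3 ± 0.177% in WT HFD and 35.2 ± 0.592% in WT ND (SD, n = 3 each). No test was made on a sum over genes chosen for their level.

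The larger share on HFD was spread over the ranks in another way in KO than in WT. Ranks 2 to 10 held 11.4 ± 1.09% in KO HFD and 8.12 ± 0.0527% in KO ND, and 12.1 ± 0.727% in WT HFD and 7.79 ± 0.332% in WT ND (SD, n = 3 each). Ranks 11 to 106 held 22.1 ± 1.33% in KO HFD and 20.6 ± 0.369% in KO ND, and 20.2 ± 0.286% in WT HFD and 21.0 ± 0.740% in WT ND. By library, ranks 11 to 106 held 20.6, 23.1 and 22.6% in KO HFD, against 21.0, 20.6 and 20.3% in KO ND. KO HFD replicates 2 and 3 were above every KO ND library for these ranks, and replicate 1 was not. Ranks 2 to 10 were above every KO ND library in all KO HFD libraries, at 12.5, 10.3 and 11.4%.

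**Figure D1:**
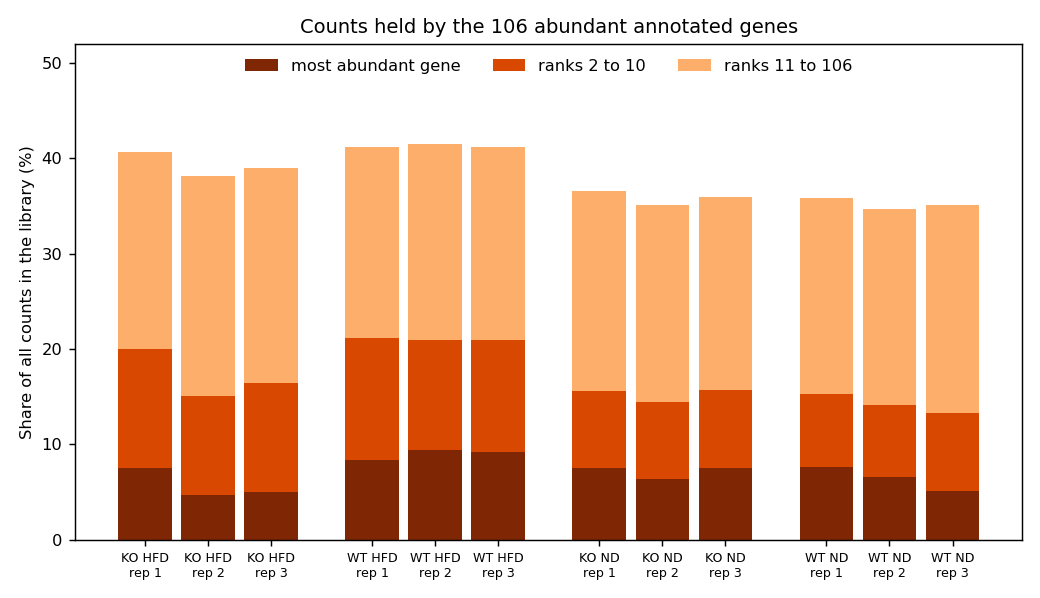
Share of all counts of a library (%, y axis) held by the rank 1 gene, ranks 2 to 10 and ranks 11 to 106, stacked, for each of the 12 libraries by group (x axis). The stacks reach 38.2 to 41.5% in the HFD libraries and 34.7 to 36.6% in the ND libraries.

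The rank 1 gene was the highest entry in all 12 libraries, and rank 2 was second in all 12. Rank 1 held 7.54, 4.73 and 4.99% of counts in KO HFD, against 8.33, 9.43 and 9.16% in WT HFD. Its share was 7.52, 6.42 and 7.48% in KO ND, against 7.63, 6.61 and 5.16% in WT ND. Every WT HFD library was above every KO HFD and every WT ND library, whereas the KO groups overlapped between diets. The difference was -3.22 percentage points for KO against WT on HFD, and 2.51 points for HFD against ND in WT. Each had an exact two-sided permutation p of 0.1, the smallest that 3 against 3 libraries allow, or 0.2 after Benjamini-Hochberg adjustment over 4 comparisons. HFD against ND in KO gave -1.39 points (exact p = 0.4) and KO against WT on ND gave 0.672 points (exact p = 0.7). Without KO HFD replicate 1, HFD against ND in KO gave -2.28 points and KO against WT on HFD gave -4.12 points. KO HFD replicates 2 and 3, at 4.73 and 4.99%, lay below every KO ND library. The 95% Wilson interval of such a share extended at most 0.0267 points from it; it takes in counting error alone and is far below the spread between libraries.

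The 10 highest members were not the same in every group. KO HFD and KO ND shared 6 of their 10 highest members, and WT HFD and WT ND shared 5. Between genotypes, KO HFD and WT HFD shared 6, and KO ND and WT ND shared 8. In all 4 groups, 4 genes stood among the 10 highest.

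High-fat diet moved 49 of the 106 genes in wild-type liver, 36 of which rose and 13 fell (edgeR quasi-likelihood test on all 12 libraries, p under 0.05 after Benjamini-Hochberg adjustment across the 13843 tested genes). Over all genes tested 41.0% passed, 19.5% higher and 21.5% lower, and among the 1347 genes of 100 to 1000 CPM 48.4% passed, 33.3% higher and 15.1% lower. The members' shares were 46.2% in either direction, 34.0% higher and 12.3% lower, so they lie near those of the next abundance class and lean upward more than all genes. The median log2 fold change was 0.21 over the members and -0.03 over all genes tested. The direction depends on the scaling. When libraries were scaled by their total counts alone, the median of all genes shifted to -0.32 and that of the members to -0.08. Then 20 members passed in each direction, beside 10.8% of all genes higher and 35.5% lower.

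In knockout liver 49 members also passed, 40 higher and 9 lower on HFD. Of all genes tested, 44.8% passed, 22.6% higher and 22.1% lower, and of the genes of 100 to 1000 CPM 54.6% passed, 35.5% higher and 19.2% lower. The members' shares were 46.2, 37.7 and 8.49% in the same order. The median log2 fold change was 0.28 over the members and 0.01 over all genes. Total-count scaling gave 27 higher and 18 lower, beside 15.5% of all genes higher and 30.1% lower, with medians of 0.08 over the members and -0.19 over all genes. Without KO HFD replicate 1, 35 members passed higher and 10 lower, beside 19.6% and 19.2% of all genes. Among the 80 genes over 1000 CPM in every group mean, 36 passed in KO and 38 in WT.

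Among the members that passed, 16 were at least 2-fold higher and 5 at least 2-fold lower on HFD in KO, beside 8.68% of all genes tested higher and 10.4% lower. In WT, 13 were at least 2-fold higher and 7 lower, beside 7.56% and 10.4% of all genes. At least 4-fold, 1 member was higher and 1 lower in KO (1.74% and 2.25% of all genes), and 2 were higher and 0 lower in WT (1.26% and 2.93% of all genes). The HFD and ND libraries did not overlap for 58 members in KO (54.9% of all genes tested did not overlap) and for 64 members in WT (53.2% of all genes tested). In KO 5 members passed the test with overlapping groups, and in WT 0 did.

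The largest rise in WT among members with separate groups was that of MGP_C57BL6NJ_G0031292, the rank 23 gene. Its normalised CPM (CPM after TMM scaling of the library sizes) was 10599, 6381 and 7685 in WT HFD, against 1620, 1342 and 1416 in WT ND. The log2 fold change was 2.49 (SE 0.36, edgeR adjusted p = 0.000308). In knockout liver it had 7869, 2206 and 4295 in KO HFD, against 1326, 1344 and 1185 in KO ND, a log2 fold change of 1.90 (SE 0.35, edgeR adjusted p = 0.00108). Every HFD library was above every ND library in each genotype, and KO HFD replicate 2 was the lowest of the HFD libraries.

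MGP_C57BL6NJ_G0032238, the rank 22 gene, followed closely. It had 9015, 7273 and 7108 normalised CPM in WT HFD, against 1897, 1085 and 1260 in WT ND, and its log2 fold change was 2.46 (SE 0.42, edgeR adjusted p = 0.00097). KO HFD had 9401, 2083 and 5373, against 1688, 1762 and 1718 in KO ND, a log2 fold change of 1.71 (SE 0.41, edgeR adjusted p = 0.00583). The 3 KO ND libraries were nearly equal, and the KO HFD libraries spread more than 4-fold between the lowest and the highest.

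MGP_C57BL6NJ_G0016510, the rank 28 gene, had the largest fall, in both genotypes. It had 1220, 1177 and 1134 normalised CPM in KO HFD, against 4761, 4489 and 4974 in KO ND, a log2 fold change of -2.01 (SE 0.19, edgeR adjusted p = 9.42e-06). WT HFD had 981, 1755 and 1531, against 6263, 5330 and 5423 in WT ND, a log2 fold change of -2.0 (SE 0.19, edgeR adjusted p = 1.39e-05). For this gene KO HFD replicate 1 lay with the other KO HFD libraries.

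MGP_C57BL6NJ_G0018221, the rank 84 gene, fell in WT. It had 681, 666 and 672 normalised CPM in WT HFD, against 1395, 1378 and 1788 in WT ND, a log2 fold change of -1.18 (SE 0.21, edgeR adjusted p = 0.000807). KO HFD had 684, 1383 and 1091, against 1624, 1410 and 1402 in KO ND, a log2 fold change of -0.49 that did not pass (SE 0.21, edgeR adjusted p = 0.0689). KO HFD replicate 1 had the WT HFD level and KO HFD replicate 2 was close to the ND libraries. This gene was under the limit of 1000 CPM in the WT HFD mean, so its fall in WT is given as a description.

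**Figure D2:**
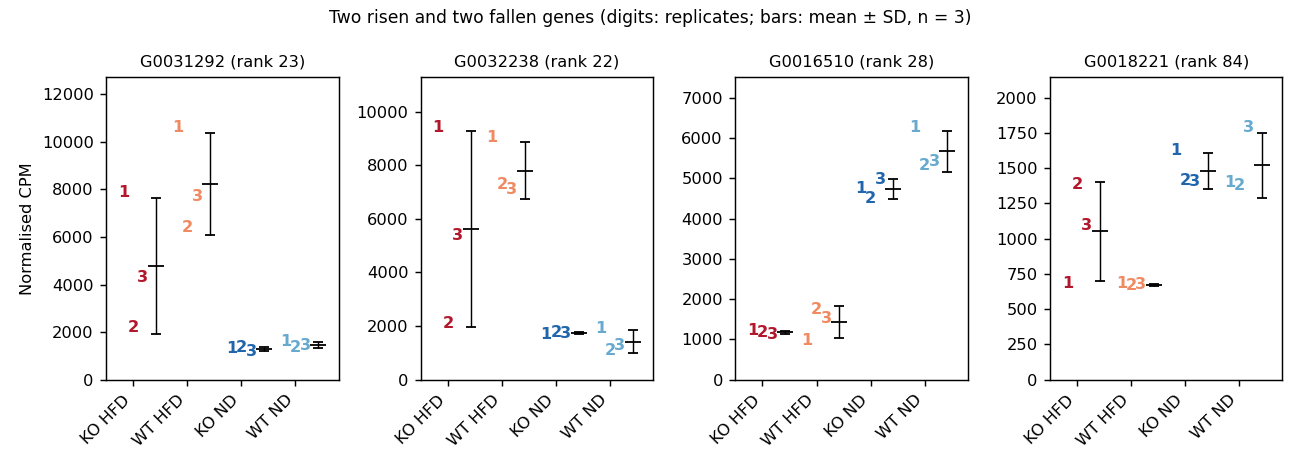
Normalised CPM (y axis, from 0) of the rank 23, 22, 28 and 84 genes in the 4 groups (x axis), with each library drawn as its replicate digit and bars for the mean ± SD (n = 3). For rank 28 the KO HFD libraries sit between 1134 and 1220, below the KO ND libraries at 4489 to 4974; for rank 23 they spread between 2206 and 7869.

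Among the 10 most abundant genes, 7 rose and 1 fell on HFD in WT. Rank 3 had the largest rise of them, with 26513, 18413 and 19672 normalised CPM in WT HFD, against 5862, 5500 and 4811 in WT ND, a log2 fold change of 2.0 (SE 0.23, edgeR adjusted p = 4.55e-05). In knockout liver it had 18019, 9407 and 12691 in KO HFD, against 6097, 5348 and 5883 in KO ND, a log2 fold change of 1.21 (SE 0.22, edgeR adjusted p = 0.000797). The groups were separate in each genotype.

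Rank 2 had 43214, 24736 and 32889 normalised CPM in KO HFD, against 19621, 19286 and 20368 in KO ND. It had 43126, 39350 and 38170 in WT HFD, against 20019, 14453 and 16769 in WT ND. It rose in each genotype, with a log2 fold change of 0.77 in KO (SE 0.20, edgeR adjusted p = 0.00774) and 1.24 in WT (SE 0.20, edgeR adjusted p = 0.000524).

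Rank 8 had 17294, 6227 and 9979 normalised CPM in KO HFD, against 5125, 5191 and 4655 in KO ND, and 16316, 12734 and 12587 in WT HFD, against 4873, 3483 and 3688 in WT ND. Its log2 fold change was 1.16 in KO (edgeR adjusted p = 0.00545) and 1.79 in WT (edgeR adjusted p = 0.000506). The HFD libraries were all higher, and KO HFD replicate 2 rose least.

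Ranks 4 and 9 rose in WT and passed narrowly in KO. Rank 4 had 19127, 7640 and 11712 normalised CPM in KO HFD, against 6792, 8867 and 7652 in KO ND, and 18214, 16995 and 18692 in WT HFD, against 5937, 6123 and 6445 in WT ND. Its log2 fold change was 0.72 in KO (edgeR adjusted p = 0.0321), where the groups overlapped, and 1.54 in WT (edgeR adjusted p = 0.000545). Rank 9 had 13604, 5739 and 8003 in KO HFD, against 5931, 4936 and 5423 in KO ND, and 11895, 11054 and 11134 in WT HFD, against 5746, 4276 and 3849 in WT ND. Its KO groups also overlapped, and its log2 fold change was 0.75 in KO (edgeR adjusted p = 0.0299) and 1.30 in WT (edgeR adjusted p = 0.00168). Without KO HFD replicate 1 both lost the KO call, with edgeR adjusted p of 0.162 for rank 4 and 0.152 for rank 9. Rank 4 also lost it without KO ND replicates 1 or 3 or KO HFD replicate 3, and rank 9 without any 1 KO ND replicate. Total-count scaling and the fit of the KO groups alone also ended both KO calls.

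Ranks 1 and 7 passed only narrowly in WT. Rank 1 had 93835, 105109 and 101680 normalised CPM in WT HFD, against 71230, 58638 and 47549 in WT ND, a log2 fold change of 0.76 (SE 0.23, edgeR adjusted p = 0.0173). It had 84900, 47899 and 52617 in KO HFD, against 70196, 59908 and 67948 in KO ND, where the log2 fold change was -0.10 (SE 0.23, edgeR adjusted p = 0.754). The WT call was lost without WT ND replicate 3 or WT HFD replicate 3 and with total-count scaling. Rank 7 had 9941, 9568 and 9711 in WT HFD, against 7100, 7203 and 7192 in WT ND, and 10124, 7654 and 8404 in KO HFD, against 7758, 6989 and 6903 in KO ND. Its log2 fold change was 0.44 in WT (SE 0.14, edgeR adjusted p = 0.0259), lost without WT ND replicate 2 or 3 or any WT HFD replicate and with total-count scaling, and 0.27 in KO (edgeR adjusted p = 0.138).

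In ranks 6 and 10, KO HFD replicates 2 and 3 stood above the WT HFD libraries. Rank 6 had 3700, 5531 and 4921 normalised CPM in WT HFD, against 8982, 9434 and 12899 in WT ND, and fell by 1.15 on the log2 scale (SE 0.32, edgeR adjusted p = 0.0115; 0.0508 without WT HFD replicate 1). KO HFD had 4787, 14577 and 10919, against 10438, 9307 and 8884 in KO ND, where the log2 fold change was 0.08 (edgeR adjusted p = 0.851). Rank 10 had 4496, 18539 and 15476 in KO HFD, against 4598, 3865 and 4404 in KO ND, and rose by 1.58 (SE 0.39, edgeR adjusted p = 0.00636) although KO HFD replicate 1 lay inside the KO ND range. It had 4562, 4538 and 4602 in WT HFD, against 5051, 6997 and 8767 in WT ND, where the log2 fold change was -0.60 (edgeR adjusted p = 0.227; 0.0104 without KO HFD replicate 1). The difference between the genotypes' diet responses did not pass for rank 6 (1.23 on the log2 scale, edgeR adjusted p = 0.188) or for rank 10 (2.18, edgeR adjusted p = 0.0781). These differences without KO HFD replicate 1 are not given here, and 35 members then passed the test of this difference.

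Rank 5 was level. It had 10148, 10119 and 10660 normalised CPM in KO HFD, against 9338, 11479 and 10044 in KO ND, and 10862, 10184 and 10944 in WT HFD, against 7793, 9458 and 10844 in WT ND. Its log2 fold change was 0.00 in KO and 0.19 in WT (edgeR adjusted p = 0.356 in WT), and the diet groups overlapped in each genotype.

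The largest rises in knockout liver among members with separate groups were those of ranks 79 and 19. Rank 79 had 674, 5133 and 3236 normalised CPM in KO HFD, against 472, 344 and 363 in KO ND, a log2 fold change of 2.94 (SE 0.63, edgeR adjusted p = 0.00413). It had 689, 624 and 662 in WT HFD, against 534, 1042 and 1574 in WT ND, a log2 fold change of -0.67 (SE 0.59, edgeR adjusted p = 0.387). This gene reached the limit of membership through KO HFD replicates 2 and 3, its only values above 2000 normalised CPM.

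Rank 19 had 8562, 2896 and 5121 normalised CPM in KO HFD, against 640, 2453 and 1229 in KO ND, and 8329, 8542 and 7115 in WT HFD, against 1133, 2863 and 4081 in WT ND. Its log2 fold change was 1.94 in KO (edgeR adjusted p = 0.0191) and 1.57 in WT (edgeR adjusted p = 0.0477). The ND libraries spread widely, and the KO call was lost without KO ND replicate 1, KO ND replicate 3 or KO HFD replicate 1.

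After rank 28, rank 97 had the largest fall in KO. It had 631, 408 and 468 normalised CPM in KO HFD, against 1524, 1278 and 1288 in KO ND, and 534, 905 and 821 in WT HFD, against 2191, 1540 and 1148 in WT ND. The log2 fold change was -1.44 in KO (SE 0.25, edgeR adjusted p = 0.000585) and -1.11 in WT (SE 0.25, edgeR adjusted p = 0.00355), with separate groups in each genotype. This gene reached the limit of membership through the groups where it is high, so these falls are given as a description.

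The diet calls of the genotypes, which share no library, overlapped in part. Of 40 members higher in KO and 36 higher in WT, 22 were higher in both, which is 55.0% of the KO list and 61.1% of the WT list. Of 9 lower in KO and 13 lower in WT, 6 were lower in both, or 66.7% and 46.2% of the lists. In the fit of all libraries no member passed in opposite directions (0), and 79 of 106 had the same sign. Without KO HFD replicate 1, rank 10 did so. It then passed lower in WT (edgeR adjusted p = 0.0104). Its rise in KO passed whichever single library was left out (edgeR adjusted p up to 0.0277). In the fit of all libraries, a further 36 members passed in neither genotype. Of all genes tested, 44.8% passed for diet in KO and 41.0% in WT. How many of all genes passed in both is not given here. Whether the members' overlap differs from that of all genes was not tested. Over the 106 genes, which are not independent replicates, the fold changes of KO and WT were related with Pearson's r of 0.507 and Spearman's rho of 0.436.

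**Figure D3:**
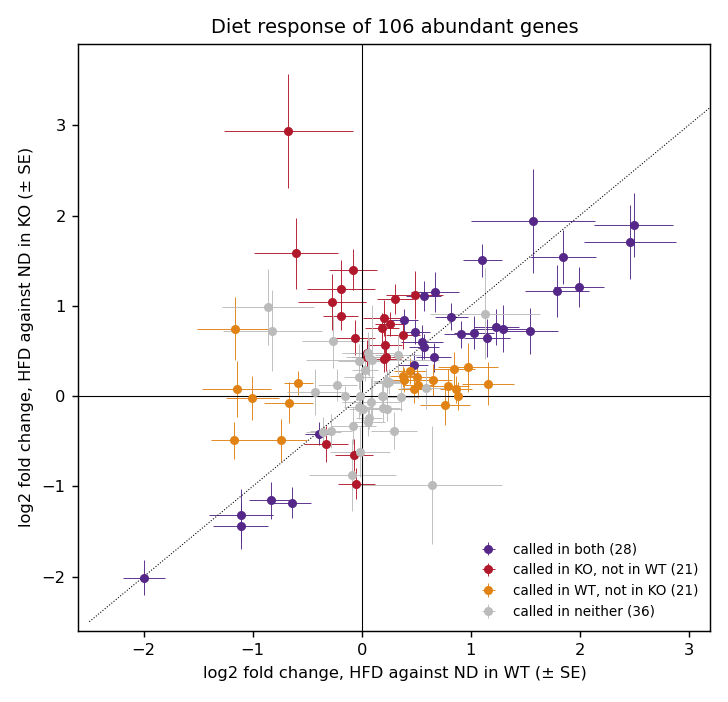
Diet response of the 106 genes as log2 fold change of HFD against ND in WT (x axis) and KO (y axis), with SE bars and colours for the genotype in which the gene passed. 28 genes passed in both genotypes, and ranks 10 and 79 lie high on the KO axis and below 0 on the WT axis.

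The genes that moved in WT were then read in the knockout libraries. These entered the membership rule and the shared fit, so they are not fully independent of the choice, and the values are a description. The 36 members that rose in WT held 27.6, 17.4 and 20.7% of counts in KO HFD, against 18.8, 17.7 and 18.7% in KO ND. In WT, where they were chosen, they held 28.9, 27.8 and 27.8% on HFD, against 18.6, 16.6 and 15.5% on ND. Of the 36, those above all KO ND libraries numbered 34 in KO HFD replicate 1. The number was 22 for replicate 2 and 28 for replicate 3. Their median log2 ratio to the KO ND mean was 0.88, 0.19 and 0.54 in the same order. The matching counts over all genes tested are not given here, so these are not read as particular to the members.

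The 13 members that fell in WT held 1.82, 4.05 and 3.19% of counts in KO HFD, against 5.11, 4.71 and 4.64% in KO ND. Of these, 12 lay below all KO ND libraries in the first KO HFD library, 7 in the second and 8 in the third by replicate number. Here too the counts over all genes tested are not given. The sums of the lists therefore changed in the same direction as in WT, except that KO HFD replicate 2 lay below the KO ND libraries for the share of the risen genes.

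**Figure D4:**
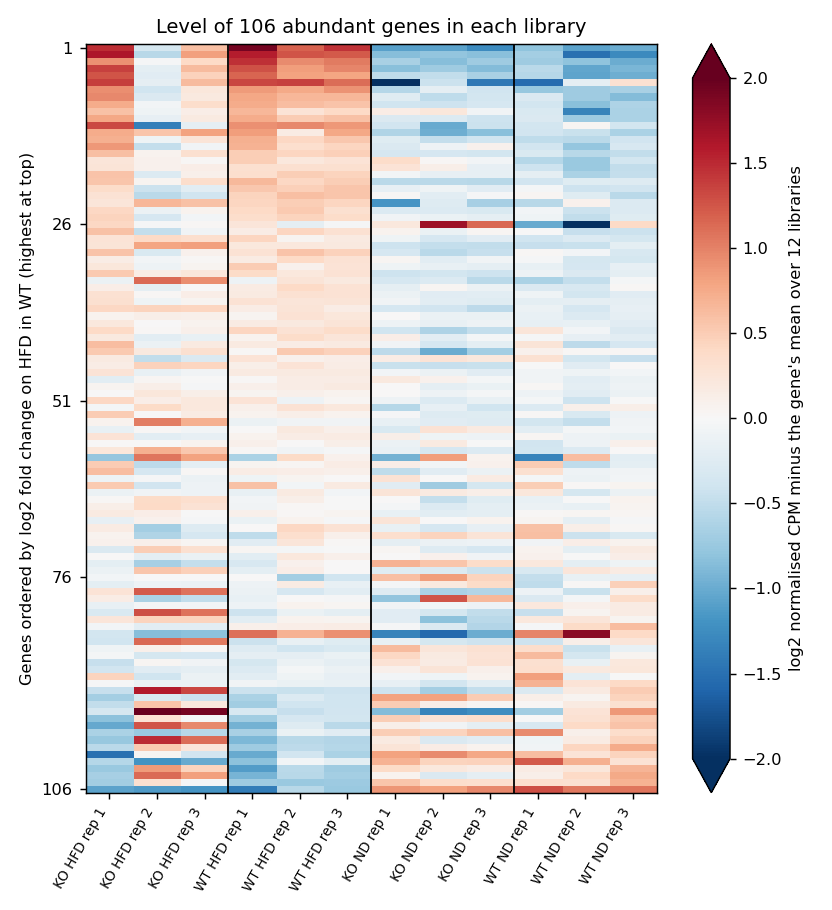
Level of each of the 106 genes (y axis, ordered by their log2 fold change on HFD in WT, highest at the top) in the 12 libraries (x axis), as log2 normalised CPM minus the gene's mean over the 12 libraries. At the top of the plot the WT HFD libraries and KO HFD replicate 1 are high, and KO HFD replicates 2 and 3 mostly lie between them and the ND libraries.

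Genotype on HFD gave no call among the members at an adjusted p under 0.05. With edgeR 0 of 106 passed, and 0.246% of all genes tested did. At an unadjusted p under 0.05, 25 members (23.6%) and 11.0% of all genes passed. DESeq2 called 10 members, 9 higher and 1 lower in KO HFD, where it called 1.73% of all its tested genes, 0.891% higher and 0.842% lower. The groups did not overlap for 17 members, 9 higher and 8 lower in KO, beside 12.6% of all genes, 6.56% higher and 6.06% lower. The median log2 fold change was -0.09 over the members and 0.01 over all genes.

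The result on HFD turned on a single library. Without KO HFD replicate 1 edgeR called 29 members, 16 higher and 13 lower in KO HFD, and 5.79% of all genes, 3.34% higher and 2.45% lower. Without KO HFD replicate 2 or replicate 3 it called 0. Replicate 1 is the KO HFD library nearest WT HFD in these genes, so leaving it out widens the genotype difference by the choice itself. The calls and p-values without it describe that dependence and are no further support for a genotype difference. Among the genes called higher without replicate 1 were rank 6 with a log2 change of 1.43 (edgeR adjusted p = 0.000773), rank 10 with 1.90 (8.96e-05) and rank 100 with 1.99 (6.63e-05). Among those called lower were rank 1 with -0.99 (edgeR adjusted p = 0.00419), rank 3 with -0.96 (0.00728) and rank 23 with -1.34 (0.0109). In the fit of all libraries these had log2 fold changes of 1.10 for rank 6, 1.49 for rank 10, 1.57 for rank 100, -0.70 for rank 1, -0.69 for rank 3 and -0.78 for rank 23, none of which passed. Which of the KO HFD libraries is typical of that group was not tested. Rank 100 also reached the limit of membership through the groups where it is high.

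On normal diet 7 members differed by genotype, 3 higher and 4 lower in KO. Of all genes tested 4.81% passed, 1.96% higher and 2.85% lower, and 6.61% of those of 100 to 1000 CPM, so the members' 6.60% is close to the share of the next abundance class. The groups did not overlap for 36 members, and for 31.9% of all genes. DESeq2 called 13 members and 8.71% of all genes. Among the 80 genes over 1000 CPM in each group mean, 3 passed. The median log2 fold change was 0.01 over the members and -0.00 over all genes.

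Rank 106, the last by abundance, reached the limit through the WT groups alone, so its lower level in KO is given as a description. It had 309, 264 and 388 normalised CPM in KO ND, against 1519, 2691 and 1015 in WT ND, a log2 fold change of -2.44 (SE 0.31, edgeR adjusted p = 0.0016 over all genes). On HFD it had 599, 426 and 437 in KO, against 1657, 1250 and 1455 in WT, a log2 fold change of -1.58 (SE 0.30, edgeR adjusted p = 0.055). It was the 1 member that was lower in every KO library than in every WT library on each diet, and 0 members were higher in that way; of all genes tested 183 were lower and 106 higher. On HFD it passed in 5 alternatives: with DESeq2, in the fit of the HFD groups alone (edgeR adjusted p = 0.0443), and without KO HFD replicate 1 (0.0185), WT ND replicate 2 (0.00788) or WT ND replicate 3 (0.0113).

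Rank 77 had 1851, 2165 and 1655 normalised CPM in KO ND, against 869, 1096 and 1083 in WT ND, a log2 fold change of 0.90 (SE 0.18, edgeR adjusted p = 0.0151). On HFD the genotypes overlapped, with 1172, 1225 and 1218 in KO and 1221, 761 and 924 in WT. The ND call was lost without WT ND replicate 2 or KO ND replicate 2. Rank 77 was under the limit of 1000 CPM in the WT HFD mean, so its differences are given as a description, as for rank 106.

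Rank 81 had 1566, 1235 and 1175 normalised CPM in KO ND, against 823, 725 and 943 in WT ND, a log2 fold change of 0.67 (SE 0.16, edgeR adjusted p = 0.0284). Rank 74 had 908, 657 and 818 in KO ND, against 1395, 1327 and 1334 in WT ND, a log2 fold change of -0.77 (SE 0.17, edgeR adjusted p = 0.0224). The KO ND and WT ND libraries were separate for each of them. Rank 81 was under the limit of 1000 CPM in the WT ND mean, and rank 74 in the KO ND mean. Their differences are therefore given as a description, as for rank 106. Leaving out single libraries ended the call of rank 81 in 6 of 12 cases, with edgeR adjusted p up to 0.133 (without WT ND replicate 2), and that of rank 74 in 4 of 12, up to 0.128 (without KO ND replicate 2). The other members that passed were rank 80 (log2 fold change -0.71), rank 65 (-0.68) and rank 32 (0.63), with edgeR adjusted p of 0.0135, 0.0295 and 0.0298 in that order.

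**Figure D5:**
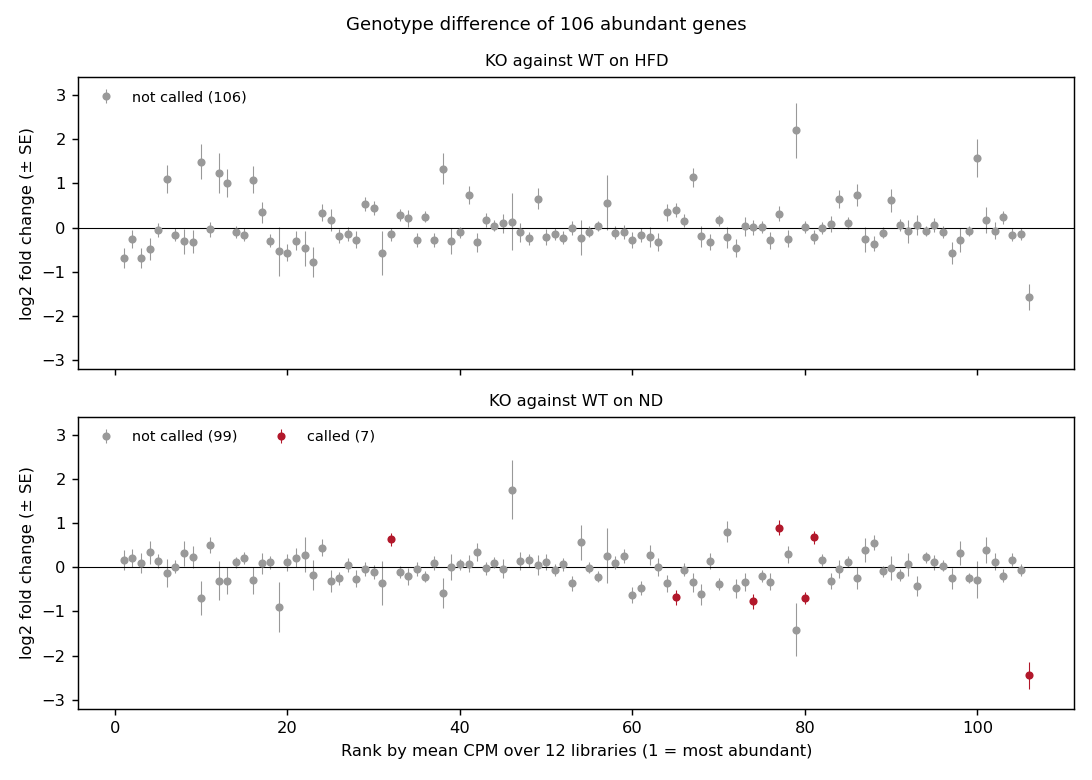
Genotype difference of the 106 genes as log2 fold change of KO against WT (y axis, SE bars) by abundance rank (x axis), on HFD and on ND, with the genes that passed in colour. No gene passed on HFD, and 7 passed on ND, the lowest being rank 106 at -2.44.

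Whether the diet response differed between genotypes was tested with an interaction term. It passed for 2 members, with a larger response in KO than in WT, and for 1.21% of all genes tested. For 0.766% of all genes it passed with a positive difference of the log2 fold changes, KO minus WT. A positive difference can also come from a gene that fell less in KO than in WT. Unadjusted, 31 members and 16.5% of all genes had a p under 0.05. Rank 67 had 1589, 3060 and 2800 normalised CPM in KO HFD, against 1099, 847 and 880 in KO ND, and 1217, 1040 and 1140 in WT HFD, against 1218, 961 and 1406 in WT ND. It rose by 1.40 on the log2 scale in KO (SE 0.23, edgeR adjusted p = 0.000315) and had -0.08 in WT (edgeR adjusted p = 0.799), a difference of 1.48 (SE 0.31, edgeR adjusted p = 0.0398).

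Rank 65 had 1646, 1909 and 1910 normalised CPM in KO HFD, against 1189, 794 and 967 in KO ND, and 1212, 1471 and 1457 in WT HFD, against 1616, 1659 and 1459 in WT ND. It rose by 0.89 in KO (SE 0.16, edgeR adjusted p = 0.000673) and had -0.19 in WT (edgeR adjusted p = 0.351), a difference of 1.08 (SE 0.23, edgeR adjusted p = 0.0383). Both interaction calls were narrow. Rank 67 lost its call when any library except KO HFD replicate 1 was left out, with edgeR adjusted p between 0.0535 and 0.122. Rank 65 lost it for any library except KO HFD replicate 1 and KO ND replicate 1, with edgeR adjusted p between 0.0508 and 0.115. Without KO HFD replicate 1 the interaction passed for 35 members, 20 higher and 15 lower, and for 6.64% of all genes, 4.05% higher and 2.59% lower. As for genotype on HFD, leaving out the KO HFD library nearest WT HFD tends to widen this difference by the choice itself.

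The abundant genes were not uniformly steady. The ratio of the highest to the lowest CPM over the 12 libraries had a median of 2.11, was under 1.5 for 16 genes and at least 4 for 19 genes. Rank 46 covered the widest range, from 241 to 5491 CPM, and rank 19 ranged from 685 to 7666 CPM. Rank 56, among the steadiest, stayed between 1514 and 1912 CPM. A set of 35 members passed in none of the 5 comparisons. The matching number over all genes tested is not given here.

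Spread within groups differed between groups. Over the members the median SD of log2 normalised CPM came to 0.266 in KO HFD, against 0.115 in WT HFD, and 0.117 in KO ND, against 0.213 in WT ND. Over all genes tested the same median was 0.274 for KO HFD and 0.221 for WT HFD, and 0.181 for KO ND and 0.210 for WT ND. Without KO HFD replicate 1 the members' median in KO HFD was 0.114, and without WT ND replicate 1 it was 0.126 in WT ND. In WT HFD and KO ND the members' median was below that of all genes.

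Several members have consecutive IDs in the annotation, in 4 runs. Ranks 22 and 2 form one run and ranks 3 and 39 another, and all of these genes were higher on HFD in both genotypes. Rank 39 had 5280, 1789 and 3182 normalised CPM in KO HFD, against 1148, 1255 and 1125 in KO ND, and 4918, 3634 and 4012 in WT HFD, against 1406, 997 and 1090 in WT ND. Ranks 16, 12 and 13 form the third run and behaved like rank 10. Rank 13 had 4620, 13430 and 12540 in KO HFD, against 5499, 4769 and 4569 in KO ND, and 4520, 5515 and 5140 in WT HFD, against 4567, 6587 and 7176 in WT ND. Its log2 fold change was 1.04 in KO (edgeR adjusted p = 0.0161) and -0.27 in WT (edgeR adjusted p = 0.503), that of rank 16 was 1.19 in KO (0.00822) and -0.19 in WT (0.645), and rank 12 did not pass in either genotype. In all 3 genes KO HFD replicates 2 and 3 were the highest of the 12 libraries.

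Ranks 38 and 100 form the fourth run. Rank 38 had 1342, 4681 and 3765 normalised CPM in KO HFD, against 2233, 1731 and 1867 in KO ND, and 1114, 1447 and 1329 in WT HFD, against 2311, 2788 and 3605 in WT ND. It fell by 1.16 on the log2 scale in WT (edgeR adjusted p = 0.019) and had 0.75 in KO (edgeR adjusted p = 0.0968). Neighbouring IDs can belong to gene families whose copies share reads. Whether reads were split between such copies was not tested, so the values of these 9 genes are uncertain in that respect.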

How the data were processed

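Liver RNA libraries were made with the NEBNext Ultra kit, per the labels' protocols; whether the counting used strand is not stated, so antisense reads cannot be told apart. The authors deposited 1 table of raw read counts per gene, which is not normalised; featureCounts 1.5.0-p3, HISAT2 2.0.5 and the mm39 build appear in the submitters' processing notes. The gene models, beyond their C57BL/6NJ IDs, are not given in the sources used here.

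From these counts, CPM chose the members. Differences were tested with edgeR 4.0.16 in R 4.3.3. Settings were TMM scaling, filterByExpr and a robust quasi-likelihood fit of a mean per group over 12 libraries. Benjamini-Hochberg adjustment ran over 13843 genes with a threshold of 0.05. A prior count of 2 entered only the log2 normalised CPM used for SDs and replicate correlations. DESeq2 1.42.0 was an alternative. The fit was tested on simulated data. Named are the 10 most abundant genes, the 2 largest called changes with separate groups in each direction of each comparison, and the genes nearest the limit; the others (ranks 12, 13, 16, 32, 38, 39, 46, 54, 56, 80 and 100) were chosen after their values were seen. Members and lists were chosen with earlier results of these data known. Replicates of a group differed beyond sampling noise (chi-square per degree of freedom 8.05 or more), so all were kept. The highest values were those of KO HFD replicate 1, at 164.6 against replicate 2 and 93.62 against replicate 3. KO HFD replicates 2 and 3 gave 23.06, and the highest value in another group was 47.27, for WT ND replicates 1 and 3.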

Additional observations from a re-analysis of the deposited data

Results flagged for a closer look

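Of the 106 members, 2 had a diet response that differed between genotypes by the interaction term. The difference of the log2 fold changes, KO minus WT, was 1.48 for rank 67 (edgeR adjusted p = 0.0398) and 1.08 for rank 65 (edgeR adjusted p = 0.0383). In rank 67 all 3 KO HFD libraries were above all KO ND libraries, and the WT HFD libraries lay inside the WT ND range. In rank 65 all 3 KO HFD libraries were above all KO ND libraries, and WT HFD replicate 2 lay inside the WT ND range with WT HFD replicates 1 and 3 below it. Each call was lost without most single libraries.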

How the results depend on the processing

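Of the alternatives to the counts, shares and differences, 126 stayed within 1.5 times the count or within the spread of replicates and 39 moved. The members' median log2 fold change for diet in WT, given above, changed sign with total-count scaling. For KO against WT on HFD (0 members called), no filter on low counts and the fit of only the compared groups gave 1 each, DESeq2 gave 10, and leaving out single libraries gave 0 to 29. Of all genes, DESeq2 called 1.73% in this comparison, and 5.79% passed without KO HFD replicate 1. For KO against WT on ND (7 called), DESeq2 gave 13, the 80 genes over 1000 CPM in each group mean gave 3, and leaving out single libraries gave 1 (without KO ND replicate 2) to 15 (without KO HFD replicate 1). Here DESeq2 called 8.71% of all genes, and 8.28% passed without KO HFD replicate 1. For the interaction (2 called), no filter gave 4, DESeq2 13 and leaving out single libraries 0 to 35. DESeq2 called 4.16% of all genes for it, and 6.64% passed without KO HFD replicate 1. For HFD against ND, leaving out single libraries gave 35 to 54 in KO and 36 to 57 in WT. Where no share of all genes stands beside a count in this paragraph, the count describes the dependence on processing alone. The share of counts in KO HFD, WT HFD, KO ND and WT ND was 40.8, 42.7, 36.7 and 36.0% of annotated counts, 30.9, 33.5, 27.4 and 26.5% with a limit of 2000 CPM, and 48.7, 50.5, 44.9 and 44.5% with a limit of 500 CPM; leaving out single libraries gave 38.6 to 39.8%, 41.2 to 41.3%, 35.5 to 36.3% and 34.9 to 35.5%. The cause of these shifts was not tested. The rank 1 gene's share differed by -2.28 to -0.875 points for diet in KO, 1.85 to 3.09 in WT, -4.12 to -2.71 for genotype on HFD and 0.0176 to 1.25 on ND when single libraries were left out. Correlations of same-numbered deviations from the group means ran between -0.0166 and 0.246, and not every sample correlated best with its own number. The samples were treated as unpaired, but with 3 libraries a group this cannot exclude a pairing by replicate number. With the replicate number as a block, 52 members passed for diet in KO and 50 in WT. The block gave 0 for genotype on HFD, 9 on ND and 2 for the interaction. For the named genes, 615 alternatives kept the direction and the side of the threshold, 60 ended a call and 3 gave one. With 3 libraries a group, the spread between libraries and not the depth limits these results.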

Other observations

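On normal diet, 2 further abundant genes varied widely between the libraries. Rank 46 had 1828, 5122 and 3524 normalised CPM in KO ND, against 786, 214 and 2100 in WT ND, and 2125, 1565 and 1612 in KO HFD, against 1875, 1402 and 1559 in WT HFD. Rank 54 had 916, 3766 and 2477 in KO ND, against 1288, 1533 and 2028 in WT ND, and 1758, 1023 and 1119 in KO HFD, against 1420, 1587 and 1562 in WT HFD. Both were chosen after their values were seen. In each gene KO ND replicate 2 was the highest of all 12 libraries, and the HFD libraries of the genotypes lay closer together than the ND libraries.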
